A study of Rattus norvegicus with 8 samples.

Results

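The genes described here are 5 components of the plasminogen activator system in the rat ovary: Plau, Plaur, Plat, Serpine2 and Vtn. They were taken as the probe sets of the Affymetrix array for the rat genome that are annotated to 1 of these symbols and to no other gene, which gave 7 probe sets, out of 20826 probe sets of 14217 genes that carry a single symbol. Each gene is represented by its brightest probe set, and Plau and Plaur have a second one that is given beside it. The values are log2 expression per probe set after GCRMA, a normalization that corrects each probe for background according to its base composition, so a difference of 1 is a doubling.

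Female Sprague-Dawley rats of the DHT group carried a silicone capsule that released 83 µg of 5α-dihydrotestosterone, an androgen that cannot be converted to estrogen, per day for 12 weeks. CTL rats carried an empty capsule for the same time, and all animals were killed at 15 weeks of age. RNA of the ovarian cortex gave 8 arrays: each group had 3 arrays of 1 animal apiece and 1 array on which the RNA of its 3 animals was pooled. As a model of polycystic ovary syndrome the treatment has a limit that bears on bulk tissue: according to the study's methods, corpora lutea were few or missing in DHT-treated ovaries and present in most CTL ovaries. In such samples, fewer cells of a type and less RNA per cell cannot be told apart.

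The plasminogen activators are serine proteases that cut the inactive circulating precursor plasminogen into plasmin, a protease that dissolves fibrin and breaks down extracellular matrix. Urokinase (Plau) works mainly at the cell surface, bound to its receptor (Plaur), whereas tissue-type activator (Plat) is best known for acting on fibrin. Protease nexin 1 (Serpine2) is a serpin that inactivates urokinase, tissue-type activator, plasmin and thrombin. Vitronectin (Vtn), a glycoprotein of plasma and matrix, binds integrins and the urokinase receptor. In the rat ovary the system is known for its part in the opening of the follicle wall at ovulation, when gonadotropins induce activators in granulosa and theca cells.

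A transcript was called when DHT and CTL means of 3 animals each differed at least 2-fold, p was at most 0.01 and the false discovery rate at most 10%, in limma fitted over 31042 probe sets. All adjusted p-values are from that limma fit with Benjamini-Hochberg adjustment over these probe sets, unless another setting is named. By these criteria 0.68% of all probe sets were called higher in DHT-treated ovaries and 0.351% were called lower. Of the calls, 65.9% were higher, and with quantile normalization this was 50.3%. A signal was read as above background when it exceeded the 95th percentile, on the same array, of 41 probe sets for chemosensory receptors of nose and tongue, genes an ovary is not known to use, a level of 2.65 to 2.69 on the DHT arrays and 2.62 to 3.07 on the CTL arrays. CTL replicate 3 stood apart from the other arrays. Over all probe sets it correlated with CTL replicates 1 and 2 at r = 0.866 and 0.879, while the DHT replicates correlated with each other at 0.984 to 0.995. With DHT replicates 1 to 3, CTL replicate 3 correlated at 0.907, 0.898 and 0.904, higher than with either of the other CTL replicates. The control for RNA length, the log2 difference between the 3′ and 5′ probe sets of Gapdh, was 3.61, 2.99 and 3.98 on DHT replicates 1 to 3, against 0.39, 0.62 and 3.49 on CTL replicates 1 to 3. This measure moved with the groups apart from CTL replicate 3, so each gene is also given against CTL replicates 1 and 2 and against CTL replicate 3.

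Of these genes, Vtn was called higher in DHT-treated ovaries and none was called lower, and only Vtn and Plau had an unadjusted p under 0.05. Plau had the largest difference of the 5, 5.81-fold higher in DHT-treated ovaries, but missed the limit on the false discovery rate. Serpine2 was higher in every DHT animal than in any CTL animal, by an amount that depended on CTL replicate 3, and Plat read lower in every DHT animal than in any CTL animal. Plaur was above background on 1 of the 6 arrays, that of CTL replicate 1. The values of the 2 groups did not overlap for any of the 5: DHT animals were higher throughout for 3 genes, where 10.6% of all probe sets showed this, and lower throughout for 2 genes, where 6.85% of all probe sets did. For Plaur, 1 of those 2, this compares signals that are mostly below background. The median log2 fold change of the 5 genes was 1.55, beside -0.03 over all probe sets, and it counts Plaur. The 5 genes were chosen with earlier results of these data known. This median and the counts without overlap are therefore descriptions and not tests. An exact two-sided permutation test over the 6 animals gave p = 0.1 for each of the 5, which is the smallest p that 3 animals against 3 can give.

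**Figure D1:**
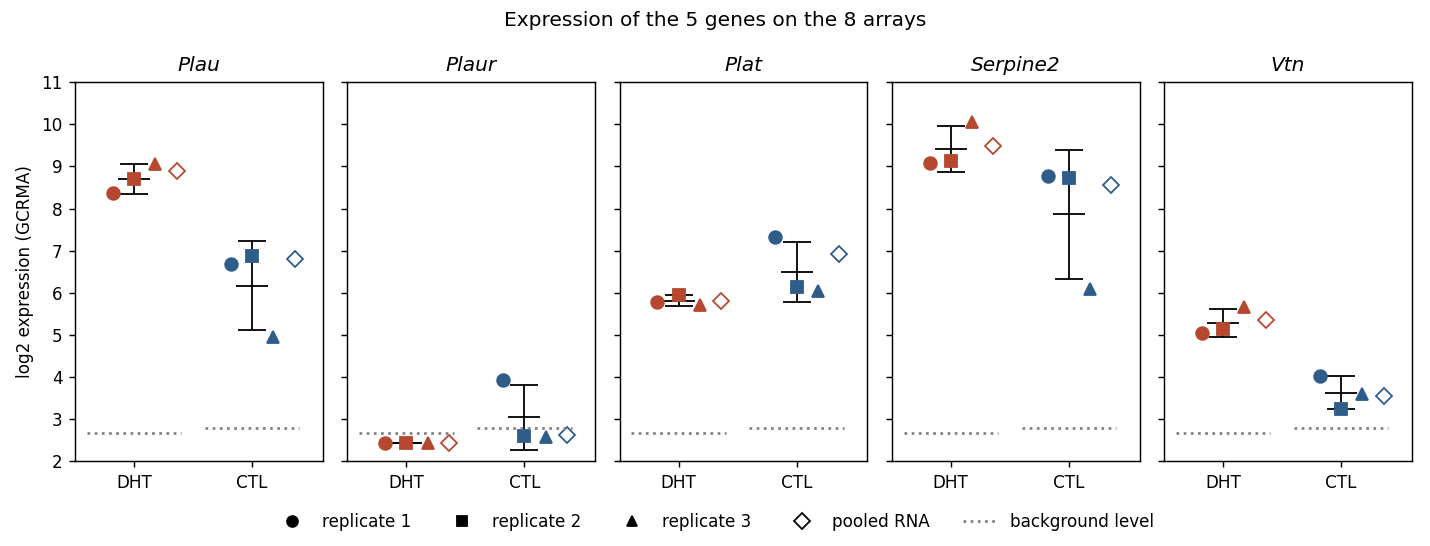
Log2 expression (GCRMA, vertical axis) of the 5 genes in DHT-treated (left of each panel) and CTL ovaries (right); filled symbols are single animals, open diamonds are pooled RNA, bars are the mean ± SD of 3 animals, and dotted lines are the group's mean background level. Plau and Vtn lie apart in the 2 groups, the low CTL points of Plau and Serpine2 are CTL replicate 3, and the DHT points of Plaur lie below background.

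Since Plau and Vtn had the smallest p of the 5, the 250 bases before their annotated start sites are shown, from RefSeq on build GRCr8. Of the 5 genes, 4 had such a sequence in the table used, and that of Plat was not used here. The window of Serpine2 runs into the gene as annotated and is not described. The window of Plau is chr15:3511988-3512237 on the minus strand and that of Vtn is chr10:63892532-63892781 on the plus strand. Capitals mark matches to the GC box, the binding sequence of Sp1.
Plau: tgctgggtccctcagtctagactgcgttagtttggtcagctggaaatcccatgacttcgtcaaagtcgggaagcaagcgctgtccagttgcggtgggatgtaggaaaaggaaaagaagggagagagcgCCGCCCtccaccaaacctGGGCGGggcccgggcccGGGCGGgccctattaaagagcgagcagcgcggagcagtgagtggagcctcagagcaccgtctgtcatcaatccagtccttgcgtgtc
Vtn: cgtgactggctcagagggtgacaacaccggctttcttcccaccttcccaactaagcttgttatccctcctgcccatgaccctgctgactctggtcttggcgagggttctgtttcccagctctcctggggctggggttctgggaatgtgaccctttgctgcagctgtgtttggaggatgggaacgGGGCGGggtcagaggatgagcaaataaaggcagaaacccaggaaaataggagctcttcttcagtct
The GC box was searched as GGGCGG on both strands, and 30.5% of 33465 promoter windows of this length hold it. Counted from -1 at the base before the start site, Plau has it at -122 to -117 on the minus strand and at -104 to -99 and -87 to -82 on the plus strand, whereas Vtn has it once, at -66 to -61. Plaur had none, but carried the AP-1 sequence TGANTCA at -83 to -77, which 6.34% of the windows hold. The TATA box TATAAA, the cAMP response element TGACGTCA, the androgen receptor element core TGTTCT and the SF-1 element CAAGGTCA were searched as well on both strands, and were in none of the windows of Plau, Vtn and Plaur. They were present in 12.9%, 1.59%, 17.5% and 1.33% of all windows, in that order. These matches describe letters and do not show binding.

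Among the activators, urokinase was the transcript with the largest difference. Plau (probe set 1387675_at, gene at chr15:3505485-3511987) had 8.36, 8.69 and 9.07 in DHT-treated ovaries, against 6.68, 6.88 and 4.96 in CTL ovaries. Every DHT animal was above every CTL animal, and CTL replicate 3 lay well below the other CTL animals. The means were 8.71 ± 0.35 in DHT and 6.17 ± 1.06 in CTL (SD, n = 3 each). The log2 fold change was 2.54 (standard error 0.57, 95% interval 1.10 to 3.98), with an adjusted p of 0.156, so that its fold and its p were within the limits of a call and the false discovery rate was not. Against CTL replicates 1 and 2, with a mean of 6.78, the difference of the DHT mean was 1.93, and against CTL replicate 3 it was 3.75. Pooled RNA read 8.90 in DHT and 6.81 in CTL, a difference of 2.09. Without CTL replicate 3 the limma fit called Plau higher, at 1.93 with an adjusted p of 0.0377. With the Gapdh measure as a covariate it was called at 3.62 with an adjusted p of 0.0157, near its difference from CTL replicate 3. Of the single-animal CTL arrays, only that of replicate 3 had a Gapdh measure close to those of the DHT arrays. This fit therefore leans on CTL replicate 3 and cannot separate the measure from the treatment. The pooled arrays, which were not in this fit, had a Gapdh measure of 3.72 in DHT and 2.62 in CTL.

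The second probe set of Plau did not give the same picture. Probe set 1398287_at had 2.36, 2.44 and 2.40 in DHT-treated ovaries, all below background, against 2.97, 2.91 and 2.41 in CTL ovaries, where 2 of 3 arrays were above background. CTL replicate 3 lay among the DHT values, so the groups overlapped. Pooled RNA read 2.38 in DHT and 2.35 in CTL. With an adjusted p of 0.482 this probe set showed no difference beyond the spread of the CTL animals, and no fold is given as most of its signals were below background. Which part of the transcript each of the 2 probe sets reads was not analysed here. Averaged over both, Plau had a log2 fold change of 1.09 (adjusted p = 0.306).

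The other activator pointed the opposite way, within the spread of the CTL animals. Plat (1367800_at, gene at chr16:75943061-76022037) had 5.78, 5.96 and 5.72 in DHT-treated ovaries, against 7.32, 6.15 and 6.04 in CTL ovaries. The DHT animals were close together and below all CTL animals, of which replicate 1 was far above the others. The log2 fold change was -0.68 (standard error 0.37, 95% interval -1.62 to 0.25, adjusted p = 0.592), from means of 5.82 ± 0.12 in DHT and 6.50 ± 0.71 in CTL (SD, n = 3 each). It was -0.92 against CTL replicates 1 and 2 and -0.22 against CTL replicate 3. Without CTL replicate 1 it was -0.28, and with the Gapdh covariate -0.17. The pooled arrays read 5.80 in DHT and 6.92 in CTL. No change of Plat was thus detectable with this number of arrays.

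The urokinase receptor was near the limit of detection. Plaur (1387269_s_at, gene at chr1:89181363-89196308) had 2.44, 2.43 and 2.44 in DHT-treated ovaries, against 3.94, 2.61 and 2.58 in CTL ovaries. Only CTL replicate 1 was above background, and the other CTL animals lay just above the DHT animals. The measured means were 2.44 ± 0.0055 in DHT and 3.05 ± 0.77 in CTL (SD, n = 3 each, adjusted p = 0.716), and the spread of the CTL values was that of replicate 1 from the others. No fold is given, since without CTL replicate 1 no array was above background. The second probe set, 1371286_at, had 2.52, 2.49 and 2.53 in DHT and 2.48, 2.47 and 2.77 in CTL, below background on all 6 arrays. For the receptor these arrays give a level only in 1 CTL animal.

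Protease nexin 1 read higher in every DHT animal, by an uncertain amount. Serpine2 (1372440_at, gene at chr9:88573138-88637252) had 9.08, 9.12 and 10.05 in DHT-treated ovaries, against 8.77, 8.73 and 6.10 in CTL ovaries. DHT replicate 3 was the highest and CTL replicate 3 the lowest, and the groups did not overlap. The means of 9.42 ± 0.55 in DHT and 7.87 ± 1.53 in CTL (SD, n = 3 each) gave a log2 fold change of 1.55 (standard error 0.82, 95% interval -0.54 to 3.64, adjusted p = 0.584). The difference was 0.67 against CTL replicates 1 and 2 and 3.32 against CTL replicate 3 alone. Leaving CTL replicate 3 out gave 0.67 with an adjusted p of 0.338, and array quality weights, which set CTL replicate 3 at 0.028 and the other arrays at 1.07 to 7.76, DHT replicate 1 highest, in an estimation that stopped before it converged, gave 0.49. The pooled arrays differed by 0.94, at 9.49 in DHT and 8.55 in CTL. Both settings put the difference under 2-fold, and the Gapdh covariate raised it to 3.07 (adjusted p = 0.0339).

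Vitronectin was the member whose difference varied least with the choice of CTL animals. Vtn (1368380_at, gene at chr10:63892782-63895862) had 5.04, 5.13 and 5.67 in DHT-treated ovaries, against 4.03, 3.25 and 3.60 in CTL ovaries, and all 6 arrays were above background. By a stricter limit, the most common value of an array plus 1, CTL replicate 2 was not above background (3.25, against 3.35). All DHT animals were above all CTL animals, and CTL replicate 3 lay between the other CTL animals. The means were 5.28 ± 0.34 in DHT and 3.63 ± 0.39 in CTL (SD, n = 3 each), a 3.14-fold rise (log2 fold change 1.65, standard error 0.27, 95% interval 0.98 to 2.33, adjusted p = 0.0892). The difference was 1.64 against CTL replicates 1 and 2 and 1.68 against CTL replicate 3. Of the single-animal CTL arrays, only that of replicate 3 had a Gapdh 3′ to 5′ difference close to those of the DHT arrays. Pooled RNA read 5.35 in DHT and 3.56 in CTL, a difference of 1.79. The call rested on a narrow margin: it was lost without any of the 3 DHT animals or without CTL replicate 1 or 2 (adjusted p = 0.117 to 0.29, log2 fold change 1.46 to 1.85), and kept without CTL replicate 3. It was also lost with quantile normalization (adjusted p = 0.129), with a mean-variance trend (adjusted p = 0.132) and with the Gapdh covariate, where the log2 fold change was 1.63 and the unadjusted p exceeded 0.01 (adjusted p = 0.0402).

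**Figure D2:**
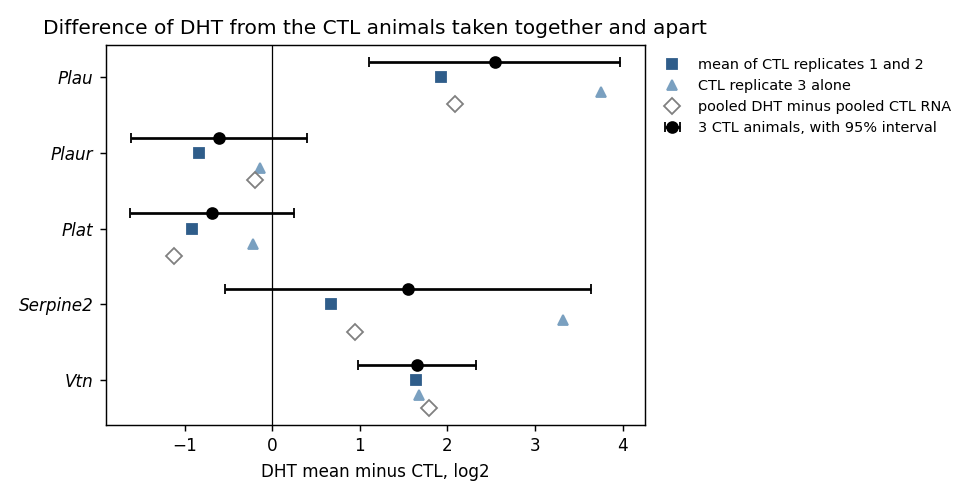
Log2 difference of the DHT mean (horizontal axis) from the 3 CTL animals with its 95% interval from limma (black), from CTL replicates 1 and 2 (squares), from CTL replicate 3 (triangles), and of pooled DHT from pooled CTL RNA (diamonds), for each gene; the signals of Plaur are mostly below background. The 4 estimates of Vtn lie between 1.64 and 1.79, while those of Serpine2 run from 0.67 to 3.32 and those of Plau from 1.93 to 3.75.

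Across the alternatives in scaling, weights, arrays and covariates, Plau, Plat, Serpine2 and Vtn kept their direction. The log2 fold change of Vtn stayed within 1.46 to 1.85 and that of Plau within 1.09 to 3.62, whose low end is the average of both probe sets. Serpine2 ranged from 0.49 to 3.07 and Plat from -1.12 to -0.17. Plat and Plaur were not called under any alternative with a test, and neither was Serpine2 apart from passing an adjusted p of 0.05 with the Gapdh covariate, where its p was over 0.01. Of the animals left out in turn, CTL replicate 3 moved Plau and Serpine2 the most, and CTL replicate 1 moved Plat the most.

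**Figure D3:**
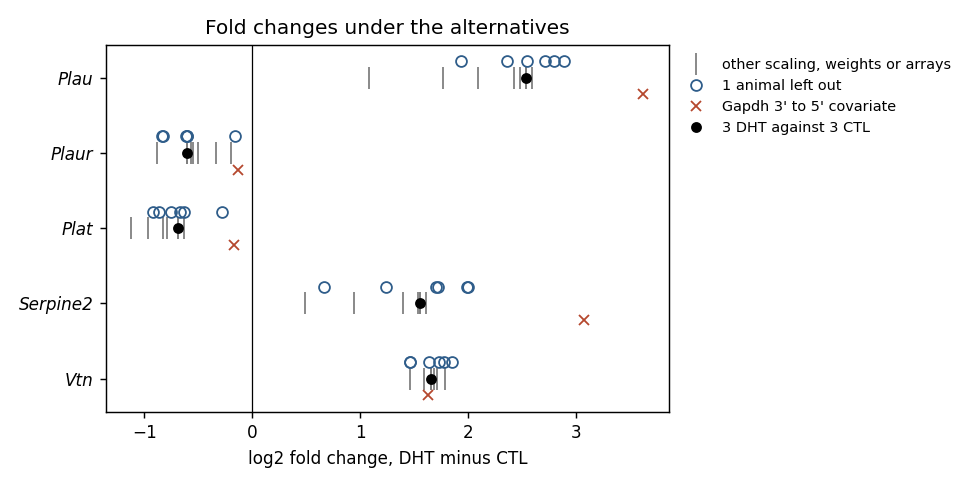
Log2 fold change, DHT minus CTL (horizontal axis), of the 5 genes for 3 DHT against 3 CTL animals (black), with 1 animal left out (circles), with the Gapdh measure as a covariate (crosses), and under other scaling, weights, probe sets or the pooled arrays (ticks); the signals of Plaur are mostly below background. Vtn keeps to 1.46 to 1.85, whereas Serpine2 is spread over 0.49 to 3.07.

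Cell type markers also stood at different levels in the groups. The theca list (Cyp17a1, Insl3, Nr2f2) had a mean log2 level of 8.28 to 8.90 in DHT and 5.58 to 6.96 in CTL animals, with 1 of its 3 genes, Insl3, called higher. Luteal markers averaged 5.73 to 7.76 in DHT and 9.11 to 10.46 in CTL animals, with a median log2 fold change of -1.94 over 6 genes, 0 of them called. Lhcgr (-0.63) and Akr1c18 (-2.60) overlapped between the groups, and the other luteal markers did not. Macrophage markers averaged 4.04 to 4.44 in DHT and 4.46 to 5.71 in CTL animals, with a median of -0.64 over 7 genes, 0 of them called. Cd68 (-1.56) and C1qa (-1.77) did not overlap between the groups, whereas Csf1r, Cd163, Mrc1, Aif1 and Ptprc did. The granulosa list overlapped between the groups, at 8.87 to 9.20 in DHT and 8.54 to 8.92 in CTL animals, but its genes differed in direction. Inha, Inhbb and Amh had log2 fold changes of 0.97 to 1.79, without overlap, and aromatase (Cyp19a1) had -2.91, with overlap, all with an adjusted p of 0.238 to 0.404. Foxl2 hardly differed, at 0.09 with overlap (adjusted p = 0.896). Endothelial markers averaged 5.19 to 5.82 in DHT and 5.77 to 6.53 in CTL animals, with a median of -0.74 over 5 genes, 0 of them called. The means of Pecam1 and Kdr were lower in DHT by 2-fold or more without overlap (adjusted p = 0.278 and 0.268). Tek was lower by less (-0.42, without overlap), Emcn had -0.74 with overlap, and Vwf was higher in DHT (0.35, with overlap). The part of these cells in the values of the 5 genes was not tested. Fibroblast markers, which include collagens and decorin, had 9.78 to 9.96 in DHT and 7.76 to 9.82 in CTL animals. The low value is CTL replicate 3, the animal that was also lowest for Plau and Serpine2. The median log2 fold change of this list was 0.92 over 5 genes, 0 of them called. Dcn (1.44), Lum (1.11) and Pdgfra (0.78, adjusted p = 0.0708) were higher in DHT without overlap, whereas Col1a1 (0.25) and Col1a2 (0.92) overlapped. Pdgfra differed by 0.78 from CTL replicates 1 and 2 and by 0.76 from CTL replicate 3.

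Vitronectin in plasma comes from hepatocytes, so liver transcripts were read beside it. Of 7 hepatocyte markers, Alb, Ahsg, Serpina1 and Fgb were below background on all 6 arrays. Fga was above it on 3 DHT arrays and 1 CTL array, with means of 2.69 and 2.93, and Apoa1 and Ttr on 1 CTL array each. The list averaged 2.51 to 2.53 in DHT and 2.53 to 2.86 in CTL animals. Pancreatic acinar markers averaged 4.12 to 4.29 in DHT and 2.82 to 3.00 in CTL animals, with 2 of 7 called higher, the digestive proteases Cpa1 and Ctrb1. Prss1, Cela1, Pnlip and Cel were below background on all 6 arrays, and Amy2a3 was above it on all 6, with means of 2.86 in DHT and 3.06 in CTL animals. Whether the acinar transcripts and Vtn have a common source was not tested.

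Of 38 other genes of the plasminogen system, 36 were measured, and in limma 0 were called higher and 0 lower. At an unadjusted p under 0.05 there were 2, and the lowest adjusted p was 0.104. The means were higher in DHT for 15 and lower for 21 genes, with a median log2 fold change of -0.03, equal to that of all probe sets. The groups did not overlap for 4 genes, with DHT higher for 1 and lower for 3, beside the 10.6% and 6.85% of all probe sets given above, and 12 were below background on all 6 arrays.

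Among plasminogen and the proteases that act upstream of it or beside it, 0 of 5 were called, and 3 of 5 were below background throughout. Plasminogen itself (Plg), made chiefly by the liver, had 2.35, 2.33 and 2.36 in DHT and 2.38, 2.84 and 2.47 in CTL animals, with only CTL replicate 2 above background (adjusted p = 0.677). The substrate of the activators was thus hardly detected as a transcript in this tissue.

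The inhibitor with the smallest p was alpha-2-macroglobulin (A2m), a broad trap for proteases that also takes up plasmin. A2m had 5.27, 5.28 and 3.18 in DHT, against 9.79, 11.92 and 8.93 in CTL animals. The groups lay far apart, and the lowest CTL animal was above the highest DHT animal by more than the whole DHT range. Its log2 fold change of -5.63 (standard error 0.99) came with an adjusted p of 0.104, just over the limit. It was called lower under several alternatives, among them with the pooled arrays counted as replicate 4 and without CTL replicate 3. The mean level of the luteal list was also low on the 3 DHT arrays, though Lhcgr and Akr1c18 overlapped between the groups. The part of luteal cells in A2m was not tested. Of the 8 measured inhibitors, 3 were below background on all 6 arrays.

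Receptors and uptake proteins were mostly expressed, 11 of 12 of them above background on 3 or more arrays, and 0 were called. Lrp1, the endocytic receptor that clears complexes of activators with their inhibitors, had 8.83, 9.00 and 9.53 in DHT and 8.51, 8.61 and 7.81 in CTL animals. The groups did not overlap, with a log2 fold change of 0.81 (adjusted p = 0.373), and CTL replicate 3 was again the lowest. In this role 8 of 12 means were higher in DHT and 4 lower, with a median of 0.06.

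The substrates and neighbours of the cascade had 0 of 11 called, with 8 means lower and 3 higher in DHT. Collagenase 3 (Mmp13), a matrix metalloproteinase that cleaves fibrillar collagen, had 2.76, 2.67 and 2.75 in DHT and 8.41, 3.57 and 3.92 in CTL animals. All CTL animals were above all DHT animals, and CTL replicate 1 was far above the rest, as it was for Plaur and Plat. The log2 fold change was -2.57 (standard error 1.37, adjusted p = 0.585). CTL replicate 1 also had the highest macrophage list of the 6 animals, at 5.71, and the part of that in Plaur, Plat and Mmp13 was not tested.

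**Figure D4:**
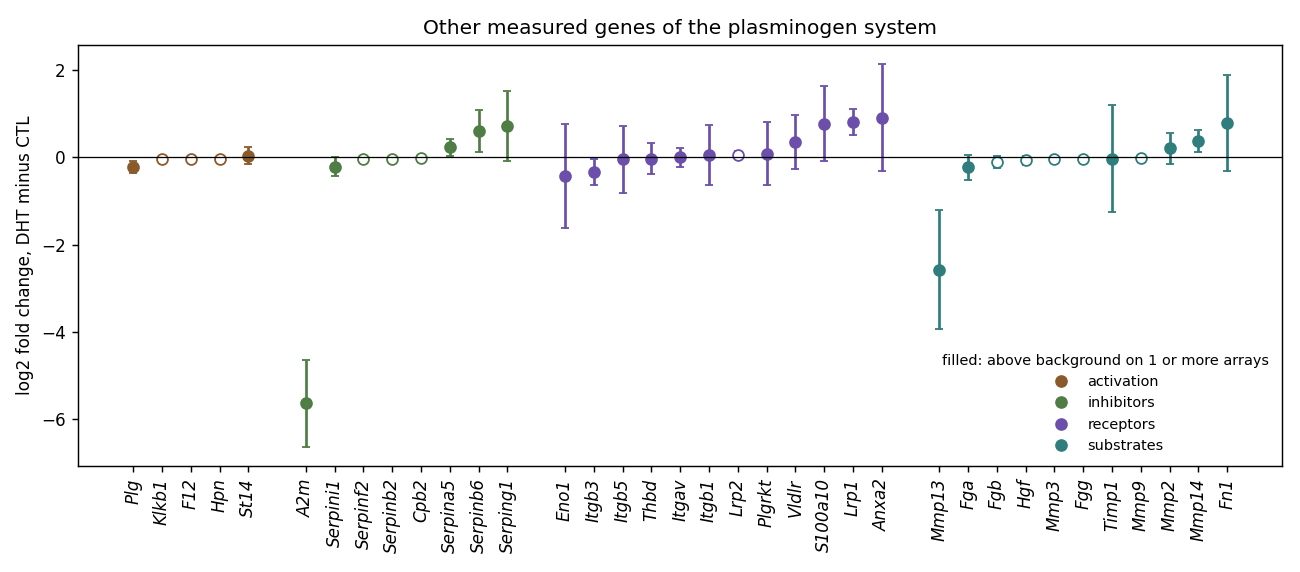
Log2 fold change, DHT minus CTL (vertical axis), of the 36 other measured genes of the plasminogen system, grouped by role, with error bars of 1 standard error from limma; open circles are genes below background on all 6 arrays. A2m at -5.63 and Mmp13 at -2.57 lie apart from the rest, and 0 of the 36 genes were called.

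The genes whose pattern over the 6 animals was most like that of a member were found by Pearson's r with its probe set, over 5548 probe sets with a single symbol, an SD of 0.5 or more and a signal above background on 3 or more arrays. With 6 points that share the same arrays and group difference, high values of r are common, and they are given as a description. Plau was most like Mier1 (r = 0.998), Ptprd (0.998) and Nfia (0.997). Vtn was most like Mier3 (0.993), Tab2 (0.991) and Zfp623 (0.991). Mier1 averaged 8.42 in DHT and 7.59 in CTL, Ptprd 7.94 in DHT and 6.06 in CTL, and Mier3 6.91 in DHT and 5.89 in CTL. Serpine2 was most like Exosc8 (0.9997), Dip2a (0.997) and Macroh2a1 (0.995), and Plat most like Slc10a2 (0.997), Tnfaip8l2 (0.996) and Fxyd2 (0.994). Plaur was left out, since its pattern is set by CTL replicate 1 alone. Plat has a similar limit, with 7.32 in CTL replicate 1 against 5.72 to 6.15 in the other animals. Of the genes most like Plat, Slc10a2 and Tnfaip8l2 averaged 2.71 and 2.73 in DHT, close to background. No gene was shared between these 4 lists.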

How the data were processed

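RNA from the ovaries of 6 separate animals, 3 DHT and 3 CTL, was hybridised to 1 array each, and pooled RNA of each group to 1 more. The deposited table holds log2 values, 1 per probe set, which the authors made with GCRMA from the scanned arrays. The submitters' processing notes name GCRMA and limma. Gene names were matched by Entrez gene to RefSeq (GRCr8), and the build behind the array was not given in the sources used here. After 57 control probe sets were left out, limma 3.58.1 (lmFit and eBayes, R 4.3.3) compared DHT with CTL over 31042 probe sets. The criteria were those given in the study's results, and the procedure was tested on simulated data. The pooled arrays, which share RNA with the single animals, were a check. The genes named are the 5 members, the 4 genes of the plasminogen system with the smallest p, and the 3 genes most like each member but Plaur, beside markers of cell types, chosen for mention after their values were seen. Members and lists were chosen with earlier results of these data known. As alternatives, pooled arrays counted as replicate 4, the replicate number entered as a block, values were scaled by quantiles or medians, dim probe sets were removed, a variance trend, array weights or a Gapdh covariate was used, animals were left out in turn, criteria were changed, or probe sets of a gene were averaged. The number of arrays limits the precision.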

Additional observations from a re-analysis of the deposited data

How the results depend on the processing

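Plat, Plaur and Serpine2 stayed on the same side of the criteria under every alternative with a test. Plau was called with the pooled arrays as replicate 4 (log2 fold change 2.43), array weights (1.77), the Gapdh covariate (3.62) and no limit on the false discovery rate (2.54). With 1 animal left out it was 1.93 to 2.89. Vtn was not called with the replicate block (1.65, adjusted p = 0.201), quantile normalization (1.59), a variance trend (1.65), the Gapdh covariate (1.63) or an adjusted p of 0.05 or less as the only limit (1.65). With 1 animal left out it was 1.46 to 1.85. Thus 2 of the 5 genes were called higher with the pooled arrays, weights or no limit on the false discovery rate, 0 with the block, quantile normalization, the trend or the adjusted p of 0.05, and 0 to 2 with 1 animal left out. Of the other genes of the system, 1 was called lower with the pooled arrays, dim probe sets left out, weights, the mean of probe sets or no limit on the false discovery rate, 0 to 1 with 1 animal left out, and 9 were called higher with the Gapdh covariate. Over all probe sets, calls lower numbered 433 and higher 533 with the pooled arrays, 0 and 0 with the block, 1144 and 730 with weights, 40 and 21 with the trend, 1088 and 2658 with the covariate, 10 and 19 at the adjusted p of 0.05, and 250 and 410 with no limit on the false discovery rate. Lower calls were 176 without dim probe sets, and higher calls were 87 with quantile normalization. With 1 animal left out they were 0 to 968 lower and 0 to 654 higher. Deviations of same-numbered animals from their group means correlated at -0.07, 0.45 and 0.35 for replicates 1, 2 and 3. Deviations within a group of 3 depend on each other, so these values cannot show whether the numbers pair the animals. DHT replicate 2 correlated best with CTL replicate 1, at 0.49. The causes of these shifts were not tested. Of all probe sets, 32.3% lay at or below background on all 6 arrays, and there differences could not be measured. Plaur was above it on 1 array.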
